A study of Mus musculus with 4 samples.

Results

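A panel of 30 cell cycle genes was described in single microglia-like cells of the mouse brain, from G1/S replication genes to the machinery of mitosis. The members were chosen by symbol, and all 30 were among the 32372 genes of the deposited matrices. Myeloid cells carrying CD11b and CD45 had been sorted from the left brain hemisphere of female mice, 4 months of age, and sequenced as 3′ droplet libraries. All animals carried the APP/PS1 transgenes, which drive amyloid deposition. In 2 libraries, labelled APP/PS1:miR-155 cKO (cKO), the microRNA miR-155 had been deleted in microglia; the 2 Control libraries were labelled APP/PS1 alone. The promoter that drives the deletion, the part of the gene removed, whether Control mice carried the driver, and the number of animals per library were not given in the sources used here. The hairpin of a microRNA is not read by 3′ libraries, so the deletion itself was not measured.

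The cell cycle is run by waves of transcription. E2F factors switch on the genes of DNA replication as a cell enters S phase, such as the Mcm helicase subunits, the sliding clamp Pcna and the enzymes that supply nucleotides; the DREAM, B-Myb and FoxM1 complexes then raise cyclin B, the kinase Cdk1, kinetochore proteins and the spindle machinery in G2 and mitosis. Microglia of the adult brain renew themselves slowly by division, and divide more around amyloid plaques. There many of them also take on the disease-associated or neurodegenerative phenotype (MGnD), marked by genes such as Clec7a, Itgax and Cst7, while others show a type I interferon response.

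The libraries held 33130800 to 47574406 unique molecular identifiers (UMIs), and 2852 to 4351 barcodes per library reached 1000 UMIs and 500 genes with no more than 10% of UMIs from mitochondrial genes. Of these 13940 cells, 12920 fell in 10 clusters that are called microglia-like. All 16 microglial markers of a fixed list were detected in them, among them P2ry12, Tmem119 and Sall1. All 16 were also detected in the clusters left out. Those were an unnamed cluster of 850 cells, set apart by low depth, and a monocyte-like cluster of 170 cells, set apart by monocyte markers among its leading genes. Libraries shared 1 to 4 barcodes per pair. Control replicate 1 went against its female label in Xist but not in Y-linked genes. The X-inactivation transcript Xist stood at 0.400 CPM (counts of UMIs per 1000000) there and at 1695 to 1862 CPM in the other 3 libraries. The Y-linked genes Ddx3y, Eif2s3y, Kdm5d and Uty had at most 4 UMIs in every library. Some of the results that use Control replicate 1 are also given without it. The labels call the replicates biological without saying which animals they came from, so p-values measure the spread between these libraries.

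Cycling cells were called without the members. In each cell thinned to 2000 UMIs, 61 other cell cycle genes (25 of S phase and 36 of G2 and mitosis, called anchors) were looked up. A cell with at least 3 of them was called cycling and a cell with none non-cycling; cells with 1 or 2 were kept apart. This gave 252 cycling cells (84 and 55 in Control replicates 1 and 2, 76 and 37 in cKO replicates 1 and 2) and 9455 non-cycling cells, with 2941 between. Of the cycling cells, 70 lay at the threshold of 3 anchors and 412 cells lay just under it with 2. Cycling cells were deeper, with a median of 10956.5 UMIs against 6802 in non-cycling cells. Their microglial markers were all detected and summed to 24453 to 25198 CPM, against 27964 to 31916 CPM in non-cycling cells. A list of 8 monocyte markers summed to 12.1 to 38.9 CPM in cycling and 7.53 to 11.9 CPM in non-cycling cells, and 3 of its genes were at 0 in cycling cells. The 5 choroid plexus and ependyma markers summed to 0 to 1.78 CPM in cycling and 91.7 to 426 CPM in non-cycling cells, with 4 of the 5 at 0 in cycling cells, and the 5 astrocyte markers to 94.5 to 130 CPM and 163 to 191 CPM, with 1 at 0. The part of these lists in the results was not tested. Most cycling cells, 183 of 252 or 72.6%, sat in cluster 9, whose leading genes were members (Top2a, Mki67, Prc1, Cenpf), since the clustering had used all variable genes.

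All 30 members rose in cycling cells, and 20 of them were confined there by the rule on ratios that follows. Top2a, the topoisomerase that untangles replicated DNA, stood at 888 and 780 CPM in cycling cells of Control replicates 1 and 2 and at 919 and 599 CPM in cKO replicates 1 and 2. In non-cycling cells of the same libraries Top2a stood at 0.753, 0.753, 0.416 and 0.533 CPM, from 10 to 21 UMIs per library. Every cycling value lay far above every non-cycling value, by a ratio of 1035 to 2210 within a library. In edgeR's quasi-likelihood test with the library as a block, the log2 fold change of Top2a was 10.30 ± 0.143 (SE, 4 libraries, adjusted p = 6.66e-35). Over all 12091 genes tested, 14.9% were higher in cycling cells, against 30 of 30 members. The cells were split on other cell cycle genes, which are expressed with the members. A rise of members was thus largely set by the split, and the sizes of the changes say more than the count. The smallest member change was that of Pcna, at 1.67 ± 0.0887.

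A member was called confined where its CPM in cycling cells was at least 20 times that in non-cycling cells in each of the 4 libraries, with non-cycling levels below 3 UMIs set to 3 UMIs per library. Of all genes tested, 1.30% met that rule, and 20 members did. They covered the cyclins Ccna2, Ccnb1 and Ccnb2 with their kinase Cdk1, the mitotic kinases and checkpoint proteins Aurkb and Bub1b with the Aurora partner Birc5, and the kinetochore proteins Cenpa, Cenpe and Cenpf. The spindle and midzone proteins Nusap1, Prc1 and Hmmr, the ubiquitin-conjugating enzyme Ube2c of the anaphase-promoting complex, the chromosome-surface protein Mki67 and the microtubule destabiliser Stmn1 belonged to them as well. From the replication side the clamp-associated Pclaf, the thymidine kinase Tk1 and the regulated subunit of ribonucleotide reductase, Rrm2, met the rule. Nusap1 had 0 to 3 UMIs per library in all non-cycling cells together and 88 to 233 UMIs in the 37 to 84 cycling cells. Rrm2 had 1 UMI in the non-cycling cells of each library. Both were thus all but absent in non-cycling cells, at the limit of what this depth can count. Those cells had been chosen for lacking the anchors, which are expressed with the members. How far that choice lowered these counts was not tested. The cells kept apart between cycling and non-cycling were not part of them. At the edge of the class stood Cenpa, with a lowest ratio of 28.1, and Cdk1 and Stmn1, with lowest ratios of 31.8 and 32.0. Mcm5 missed it, with ratios of 13.6 to 20.3.

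**Figure D1:**
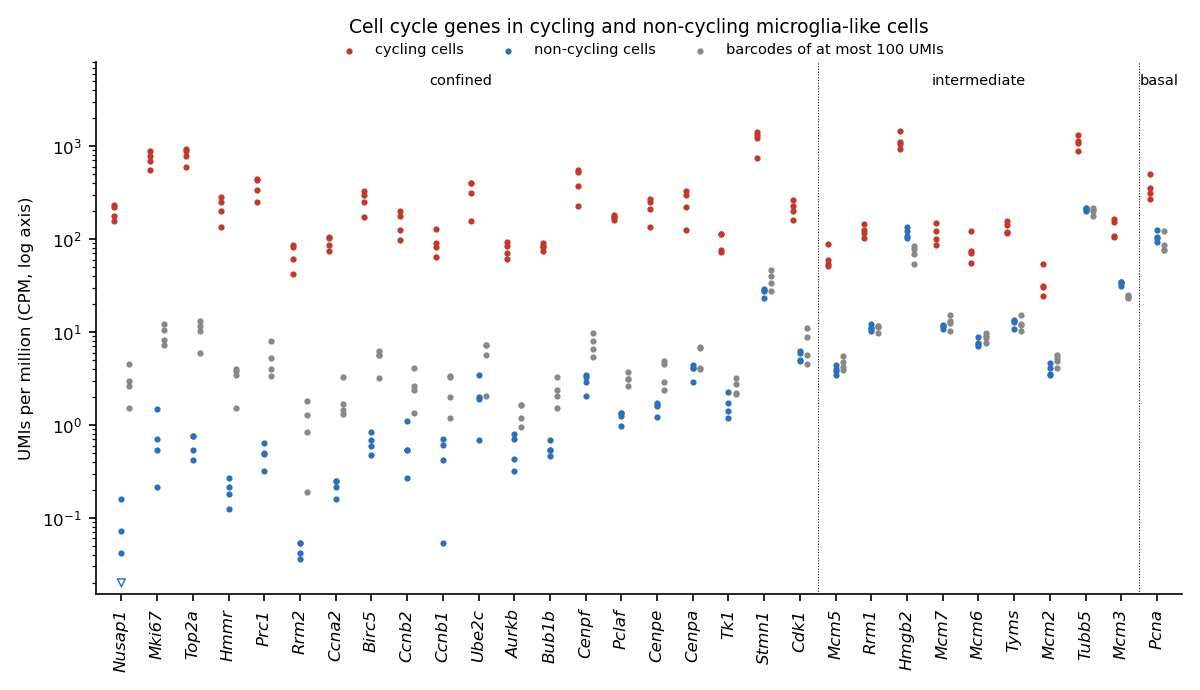
UMIs per 1000000 (log axis) of the 30 genes in cycling cells (red), non-cycling cells (blue) and barcodes of at most 100 UMIs (grey), 1 point per library; an open triangle marks a library with 0 UMIs. For each of the 20 confined genes, and for Mcm2, Mcm5, Mcm6 and Mcm7, the mean of the blue points lies below that of the grey ones. Pcna, Tubb5 and Hmgb2 stay at 93.0 CPM or more in non-cycling cells of every library.

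The other 10 members missed the rule for confined genes. That rule is on ratios and not on presence, and some confined members were counted in non-cycling cells too. Pcna stayed under a ratio of 5 in every library (2.86 to 4.00) and was the only member in that class, to which 95.3% of all genes tested belonged. It was detected at 93.0 and 105 CPM in non-cycling cells of Control replicates 1 and 2 and at 102 and 124 CPM in cKO replicates 1 and 2, against 266, 310, 351 and 497 CPM in cycling cells. The 2 sets of libraries did not overlap, yet a Pcna UMI was present in 17.5% to 21.1% of non-cycling cells at 2000 UMIs. Pcna also serves DNA repair in cells that do not divide.

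Between the classes stood 9 members. Tubb5, a beta-tubulin of ordinary microtubules, had ratios of 4.15 to 6.17, and Hmgb2, a chromatin protein that bends DNA, 6.84 to 11.8. Non-cycling levels were 201 to 215 CPM for Tubb5 and 102 to 136 CPM for Hmgb2, the highest of the panel with Pcna. The helicase subunits Mcm2, Mcm3, Mcm5, Mcm6 and Mcm7 stood at 3.45 to 34.3 CPM in non-cycling cells, with Mcm3 the highest of them in every library. The large subunit of ribonucleotide reductase, Rrm1, stood at 10.4 to 12.3 CPM and thymidylate synthase, Tyms, at 10.7 to 13.4 CPM. Within ribonucleotide reductase the subunits thus differed: Rrm1 kept a mean of 11.2 ± 0.825 CPM (SD, n = 4) in non-cycling cells and Rrm2 0.0462 ± 0.00888 CPM, while in cycling cells they stood at 121 ± 18.2 and 67.7 ± 20.03 CPM. Counts from 3′ ends do not scale with transcript length. Whether transcripts of different genes were counted equally well was not tested, which limits comparisons of CPM between genes. Tubb5 belongs to a family of closely similar genes, and how reads that fit several of them were counted is not given.

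Barcodes of at most 100 UMIs, which hold free RNA, gave a yardstick for these traces. In them Top2a stood at a mean of 10.2 CPM, Mki67 at 9.55 CPM and Nusap1 at 2.91 CPM. Non-cycling cells held less: their level divided by that of free RNA was 0.0602 for Top2a, 0.0767 for Mki67 and 0.0235 for Nusap1. Among the members that were not confined, the same ratio was 1.18 for Pcna, 1.05 for Tubb5, 1.64 for Hmgb2 and 1.39 for Mcm3. Rrm1 had 1.01 and Tyms 1.02. Mcm2, Mcm5, Mcm6 and Mcm7 had less than free RNA, at 0.792, 0.850, 0.888 and 0.899. The ratio thus differed between members. For Cdk1, Stmn1 and Cenpa, confined by their fold, it was 0.734, 0.730 and 0.712, close to that of Mcm2. At 4.85 to 6.30 and 23.4 to 28.9 CPM in non-cycling cells, Cdk1 and Stmn1 lay above the other confined members. Cdk1 also lay above Mcm2 and Mcm5 there. Stmn1 lay above Rrm1, Tyms and all the helicase subunits but Mcm3, none of which is confined.

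Counted cell by cell at 2000 UMIs, a cycling cell held UMIs of a median of 8 members and a non-cycling cell of 1. At least 3 of the 20 confined members were seen in 157 of 252 cycling cells (62.3%), in 13 of the 2941 between (0.442%) and in 9 of 9455 non-cycling cells (0.0952%). Per library the share in cycling cells was 67.9%, 52.7%, 71.1% and 45.9% in Control replicates 1 and 2 and cKO replicates 1 and 2. No confined member was seen in 55 cycling cells.

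The order of the cycle showed within the cycling cells. A cell was assigned to S where it had more S than G2M anchors and to G2M in the opposite case, which gave 101 S and 146 G2M cells and left 5 with equal numbers out. Of the 30 members, 6 rose in S cells and 19 in G2M cells, against 2.26% and 6.06% of the 4637 genes tested. Here too the split used genes that are expressed with members of the same phase. All 5 helicase subunits and Pcna made up the S group.

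Mcm2 led the S group, at 70.1, 71.1, 61.5 and 76.5 CPM in S cells of Control replicates 1 and 2 and cKO replicates 1 and 2, against 16.6, 9.51, 8.30 and 26.7 CPM in G2M cells. All S values lay above all G2M values, from 5 to 12 UMIs per library in G2M cells. The log2 fold change of S against G2M cells was 2.22 ± 0.322 (edgeR, adjusted p = 1.73e-05). Mcm6 followed at 1.73 ± 0.263, Mcm5 at 1.42 ± 0.229 and Mcm3 at 1.42 ± 0.200. Mcm7 and Pcna had 1.07 ± 0.200 and 0.73 ± 0.150, and both calls were lost where 2 anchors were enough for a cycling cell (0.48, adjusted p = 0.134 and 0.25, adjusted p = 0.280).

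Of the G2M group, Ube2c had the largest change. It stood at 558, 472, 558 and 305 CPM in G2M cells of the 4 libraries in the same order, and at 0, 3.74, 68.7 and 23.3 CPM in S cells. The S values rest on 0, 1, 19 and 7 UMIs, and none came near a G2M value. Its log2 fold change of S against G2M cells was -4.34 ± 0.341 (edgeR, adjusted p = 2.17e-09). Ccnb1, which drives entry into mitosis with Cdk1, had -4.29 ± 0.407, and Ccnb2 -3.82 ± 0.351. The kinetochore proteins Cenpf, Cenpa and Cenpe had -4.25, -4.00 and -3.40. The spindle proteins Hmmr, Prc1 and Nusap1 lay between -3.17 and -2.65, and Mki67, Birc5, Aurkb, Top2a, Bub1b and Ccna2, the cyclin that serves both S phase and G2, between -2.58 and -2.22. Cdk1 itself had a smaller change of -1.50 ± 0.183: it was still at 77.8 to 119 CPM in S cells, against 225 to 332 CPM in G2M cells. Hmgb2 and Stmn1 had -1.38 and -1.37. Tubb5 had the smallest change of the group, -0.81 ± 0.177 (adjusted p = 0.00265), and missed the threshold with DESeq2, with cells thinned to 1000 UMIs, with 4 anchors asked for and without Control replicate 1 or 2 (adjusted p = 0.0549 to 0.283).

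**Figure D2:**
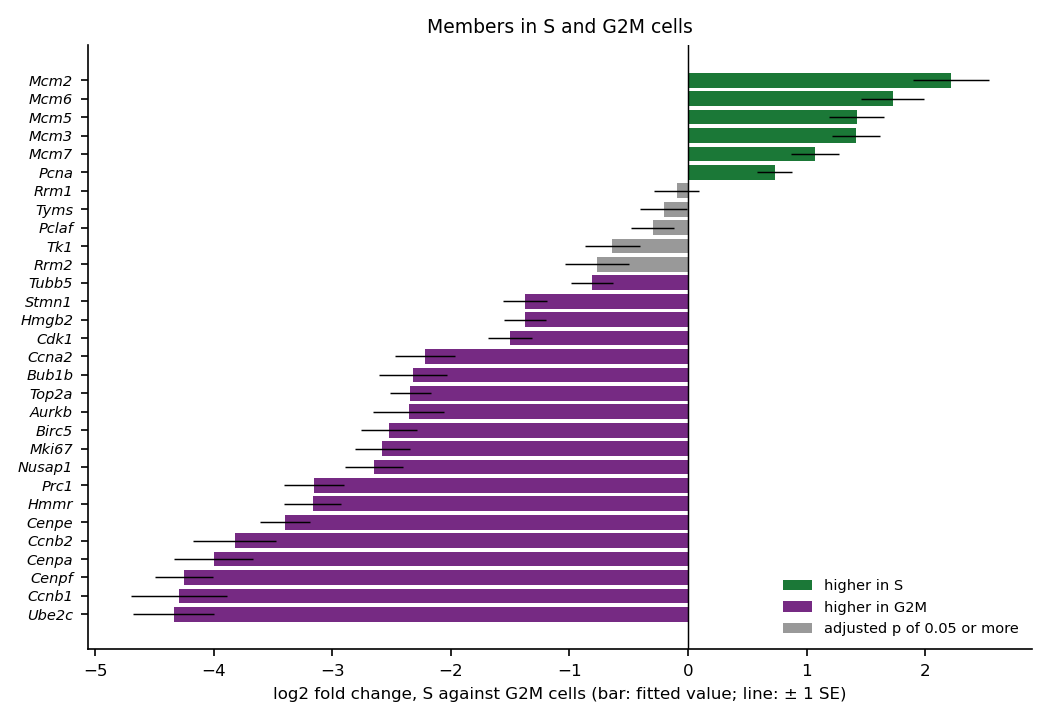
Fitted log2 fold change of each gene in S against G2M cells, with lines of ± 1 SE from the edgeR fit over 4 libraries (green, higher in S; purple, higher in G2M; grey, adjusted p of 0.05 or more). The 5 helicase subunits and Pcna lie to the right of 0. The 5 grey genes, all of nucleotide supply or the replication clamp, lie to the left of it. Rrm2, the farthest of them, lies about as far from 0 as Pcna.

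The remaining 5 members, Rrm1, Rrm2, Tk1, Tyms and Pclaf, did not pass the test in either direction. These were the enzymes of nucleotide supply and the clamp-associated factor, with changes of -0.77 ± 0.270 for Rrm2, -0.64 ± 0.232 for Tk1, -0.30 ± 0.182 for Pclaf, -0.21 ± 0.200 for Tyms and -0.10 ± 0.187 for Rrm1 (edgeR, adjusted p = 0.0835 to 0.842). Where 2 anchors were enough for a cycling cell, Rrm1, Rrm2, Tk1, Tyms and Pclaf passed on the G2M side; Rrm2 did so too without cKO replicate 2 (-1.09, adjusted p = 0.0323). The phase groups and the level classes overlapped in part: 17 of the 19 G2M members were confined, as were 3 of the 5 that did not pass, and none of the 6 S members was. A G2M cell held UMIs of a median of 13 members and an S cell of 4. No confined member had a UMI at this depth in 45 of 101 S cells and in 8 of 146 G2M cells. Without thinning, 13.5% to 15.9% of the cells of a library had enough anchors to be called cycling. Whether all cells called S were cycling was not tested, which limits the folds between phases.

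Promoters of these groups are shown because the members of a phase moved together. RefSeq start sites (build GRCm38.p6) were found for 27 members; Ccna2, Stmn1 and Aurkb had no entry. In the 250 bases before to 50 bases after the start, 3 motifs were searched on both strands: the cell cycle homology region (CHR) as TTTGAA or TTCGAA, the E2F site as TTTCCCGC, TTTGGCGC, TTTGCCGC or TTTCGCGC, and the CCAAT box as CCAAT. CHR letters were present in 11 of 16 G2M promoters (68.8%), 2 of 6 S promoters (33.3%), none of the 5 others and 19.4% of all 27025 promoters. E2F letters were present in 4 of 6 S promoters (66.7%), 1 of 16 G2M promoters (6.25%), 1 of the 5 others and 2.32% of all promoters. CCAAT was present in 6 of 6 S and 14 of 16 G2M promoters and in 37.9% of all. These are matches of letters, not tested sites. For 2 S and 4 G2M members, the 160 bases before the start are printed in the sense of the gene, with the letters of the motifs in capitals.
Mcm5: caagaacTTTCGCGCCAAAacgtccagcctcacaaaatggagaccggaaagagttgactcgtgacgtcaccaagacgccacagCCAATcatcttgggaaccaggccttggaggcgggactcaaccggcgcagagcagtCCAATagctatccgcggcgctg
Mcm6: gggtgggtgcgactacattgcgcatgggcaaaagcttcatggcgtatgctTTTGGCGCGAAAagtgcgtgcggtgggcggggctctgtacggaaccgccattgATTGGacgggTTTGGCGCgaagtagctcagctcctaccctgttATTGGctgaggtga
Cdk1: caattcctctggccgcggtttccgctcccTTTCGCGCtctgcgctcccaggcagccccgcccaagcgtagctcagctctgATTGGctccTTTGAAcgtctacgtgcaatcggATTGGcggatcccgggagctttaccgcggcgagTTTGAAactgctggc
Top2a: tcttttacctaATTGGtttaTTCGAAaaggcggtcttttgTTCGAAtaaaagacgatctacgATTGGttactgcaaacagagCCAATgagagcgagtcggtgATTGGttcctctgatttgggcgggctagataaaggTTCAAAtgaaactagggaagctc
Mki67: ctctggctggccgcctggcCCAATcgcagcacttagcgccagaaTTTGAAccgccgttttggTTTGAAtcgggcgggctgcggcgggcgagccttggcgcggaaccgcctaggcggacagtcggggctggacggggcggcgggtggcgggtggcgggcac
Hmgb2: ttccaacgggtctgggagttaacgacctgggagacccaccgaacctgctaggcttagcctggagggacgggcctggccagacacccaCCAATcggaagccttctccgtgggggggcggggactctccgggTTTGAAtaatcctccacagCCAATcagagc
The Mcm5 window lies at chr8:75109349-75109508 (plus strand), that of Mcm6 at chr1:128359706-128359865 (minus), Cdk1 at chr10:69352913-69353072 (minus), Top2a at chr11:99024190-99024349 (minus), Mki67 at chr7:135716380-135716539 (minus) and Hmgb2 at chr8:57511683-57511842 (plus). In Mcm5 and Mcm6 the E2F letters of both strands overlap in 1 run of bases. Cdk1 alone of the 6 windows holds all 3 motifs.

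Of 34 regulators of the cycle that are no members (cyclins D and E, kinases, Cdk inhibitors, E2F and Rb proteins, p53 and partners), 21 rose and 3 fell in cycling cells, where 14.9% of all genes rose and 11.9% fell. Cks1b, a small subunit of Cdk complexes, rose by a log2 change of 4.99 ± 0.149, and the inhibitors Cdkn2c, Cdkn1a and Cdkn2d by 3.85, 2.68 and 3.14. Cdkn1c (-1.40 ± 0.258), Ccng2 (-0.47 ± 0.128) and Ccnd1 (-0.32 ± 0.102) fell; the calls of Ccng2 and Ccnd1 were lost without cKO replicate 1 (edgeR, adjusted p = 0.0825 and 0.0675), and that of Ccnd1 also without either Control library and with DESeq2. Between phases, E2f1 (2.35 ± 0.335) and Ccnd1 (1.09 ± 0.222) were higher in S cells, the latter not without Control replicate 1 (adjusted p = 0.0611). Cdkn2d, Cks1b, Cdkn2c and the mitotic phosphatase Cdc25b were among 8 regulators higher in G2M cells, at -2.94, -1.85, -2.22 and -3.72.

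Cycling cells were then compared with the MGnD state at equal depth. A cell was MGnD-high with UMIs of at least 3 of 12 MGnD genes at 2000 UMIs, none of them a member. In Control replicate 1, 51.2% of cycling cells were MGnD-high (43 of 84, exact Clopper-Pearson 95% interval 40.0 to 62.3%), against 22.2% of its non-cycling cells. In the other libraries the shares were 27.3% against 22.9% (Control replicate 2), 19.7% against 19.5% (cKO replicate 1) and 18.9% against 11.3% (cKO replicate 2). The share was higher in cycling cells in all 4 libraries, by a mean of 10.3 points, with an exact sign permutation p = 0.125, the smallest that 4 libraries can give. Outside Control replicate 1, which all but lacked Xist, each interval of the cycling share held the non-cycling value, and without it the mean difference fell to 4.10 points. Intervals cover counting error only. In Control replicate 1 the excess lay in G2M cells: 66.1% of its G2M cells (37 of 56) were MGnD-high and 19.2% of its S cells (5 of 26). The G2M share was 22.2% to 27.1% in the other 3. Their S shares were 33.3% in Control replicate 2, 7.69% in cKO replicate 1 and 13.6% in cKO replicate 2. The G2M share was thus above the S share in every library but Control replicate 2. Between cycling and non-cycling cells, the mean difference was 1.17 points where 2 anchors were enough for a cycling cell. It was 16.0 points where 4 were asked for and 4.95 points where the MGnD call asked for 4 genes. With cells not thinned it was 30.6 points, and cycling cells were the deeper ones. At 2000 UMIs, cells with 1 or 2 anchors went the other way. Of them, 19.5% and 20.3% were MGnD-high in Control replicates 1 and 2. In cKO replicates 1 and 2 it was 12.9% and 7.11%. Each of these shares lay below that of non-cycling cells in the same library.

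Within non-cycling cells, 10 of the 30 members had enough UMIs to be tested between MGnD-high and other cells, and Cdk1 and Stmn1 were higher in MGnD-high cells. Cdk1 stood at 7.69, 7.80, 10.7 and 13.8 CPM in MGnD-high cells of Control replicates 1 and 2 and cKO replicates 1 and 2 (thinned counts, 10, 7, 11 and 6 UMIs) and at 2.19, 2.97, 4.49 and 2.63 CPM in the others. The 2 kinds of cells did not overlap. Its log2 fold change was 1.92 ± 0.368 (edgeR, adjusted p = 7.93e-06). In cells with no anchor at full depth, where too few thinned UMIs were left for the test, Cdk1 stood at 8.67, 9.23, 9.71 and 9.53 CPM (not thinned) in MGnD-high and at 2.46, 2.84, 4.02 and 2.61 CPM in other cells. Stmn1 stood at 35.4, 43.4, 37.1 and 34.4 CPM against 25.0, 24.8, 29.3 and 21.0 CPM, again without overlap, with a log2 change of 0.88 ± 0.156 (adjusted p = 1.61e-06; adjusted p = 0.134 at 1000 UMIs, where Cdk1 was not tested). In cells with no anchor at full depth, not thinned, Stmn1 stood at 31.3, 22.35, 29.55 and 31.45 CPM in MGnD-high and at 22.7, 23.5, 25.4 and 16.05 CPM in other cells. There the direction turned in Control replicate 2 and the 2 kinds of cells overlapped, while the test on thinned counts gave 0.79 (adjusted p = 0.00778). Of the genes tested, 19.5% were higher and 15.9% lower in MGnD-high cells.

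Few non-cycling cells with Cdk1 held another confined member. At 2000 UMIs, 33 of 1829 MGnD-high non-cycling cells (1.80%) had a Cdk1 UMI, against 47 of 7626 others (0.616%); per library it was 1.54%, 1.34%, 2.15% and 2.75% against 0.438%, 0.595%, 0.897% and 0.525%. Of those 33 cells, 2 had a UMI of any other confined member (6.06%, against 9.51% of all MGnD-high non-cycling cells), and of the 47 others 5 had one (10.6%, against 7.28% of all other non-cycling cells), while 77 of the 80 cycling cells with Cdk1 had one. Non-cycling cells had been chosen for lacking the anchors, which are expressed with these members. Free RNA held Cdk1 at 5.65, 11.1, 8.82 and 4.57 CPM in the libraries in the same order, above the thinned MGnD-high value in Control replicate 2 and below it in the other 3. For Stmn1 it held 46.7, 33.9, 39.9 and 27.6 CPM, above the MGnD-high value in replicate 1 of both genotypes and below it in replicate 2 of both. The part of free RNA in these values was not tested. Top2a had 3, 1, 0 and 0 thinned UMIs in MGnD-high non-cycling cells and 2, 0, 6 and 0 in the others, and Ccnb1 0, 1, 0 and 0 against 4, 1, 2 and 0. Ube2c, below the filter on low counts, had 13, 3, 9 and 0 UMIs against 10, 0, 0 and 3. The groups differ in size, and in thinned CPM this was 10.0, 3.34, 8.79 and 0 against 2.19, 0, 0 and 0.875. Ube2c was thus higher in MGnD-high cells in every library but cKO replicate 2, on few UMIs.

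**Figure D3:**
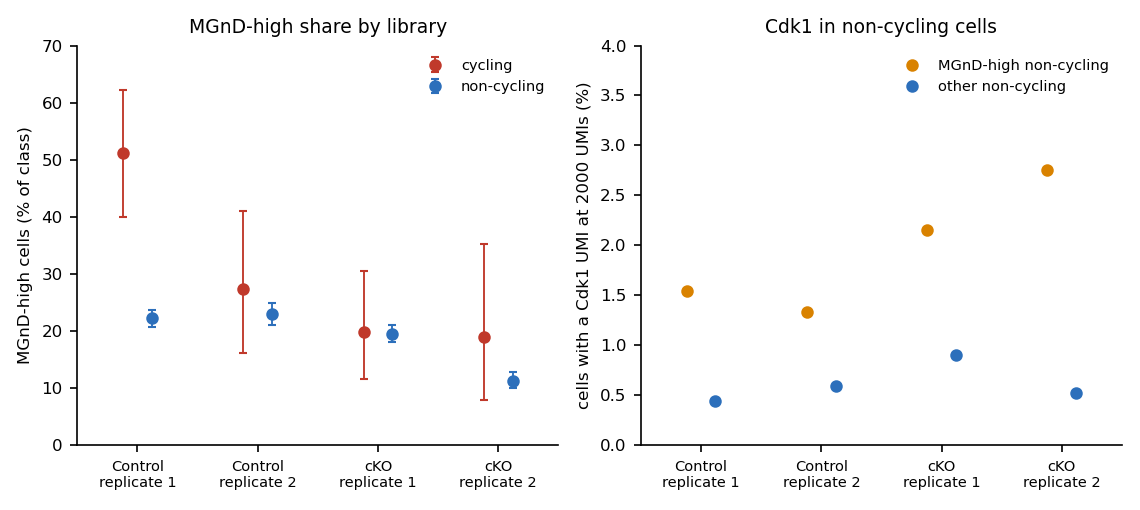
Left, MGnD-high cells as a percentage of cycling (red) and non-cycling (blue) cells in each library with exact 95% intervals; right, percentage of MGnD-high (orange) and other (blue) non-cycling cells with a Cdk1 UMI at 2000 UMIs. The red point of Control replicate 1 stands at 51.2%, and the orange points lie above the blue ones in all 4 libraries.

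The calls of 5 other tested members changed with how the sums were scaled. TMM scaling placed the median log2 change of all genes at -0.03 and scaling to library size at -0.35. Tubb5 (0.29 ± 0.0696, adjusted p = 0.000344) and Tyms (0.63 ± 0.238, adjusted p = 0.0315) passed with TMM. Library-size scaling called 10.7% of all genes higher and 43.8% lower in MGnD-high cells. With it Tubb5 had -0.03 and Tyms 0.30 (adjusted p = 0.732 and 0.266), and Hmgb2 (-0.53), Mcm3 (-0.52) and Pcna (-0.24) were lower in MGnD-high cells; with TMM they had -0.21, -0.20 and 0.08 and did not pass. Tubb5 itself stood at 202, 187, 191 and 243 thinned CPM in MGnD-high cells and at 216, 200, 198 and 207 CPM in the others, which overlap. Hmgb2 stood at 73.1, 79.1, 97.7 and 103 thinned CPM in MGnD-high cells and at 103, 116, 144 and 143 CPM in the others. It was lower in MGnD-high cells within each library, as was Pcna, while Mcm3 was higher in cKO replicate 2. These CPM values are themselves scaled to library size. Tyms also missed the threshold without Control replicate 1, Control replicate 2 or cKO replicate 1 (adjusted p = 0.0781 to 0.140). Rrm1, Mcm6 and Mcm7 did not pass under either scaling. Among the regulators, Ccnd1 (-0.59 ± 0.0846), Ccng2 (-0.77), E2f3 (-0.71) and Cdkn1b (-0.41) were 4 of 6 that fell, and Cdk4 (0.36 ± 0.129) and Cdkn1a (0.40 ± 0.148) were the 2 that rose. Library-size scaling called 0 regulators higher and 13 of 25 lower, beside 43.8% of all genes, and the calls of Cdk4 and Cdkn1a were also lost without Control replicate 1 (adjusted p = 0.135 and 0.425).

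**Figure D4:**
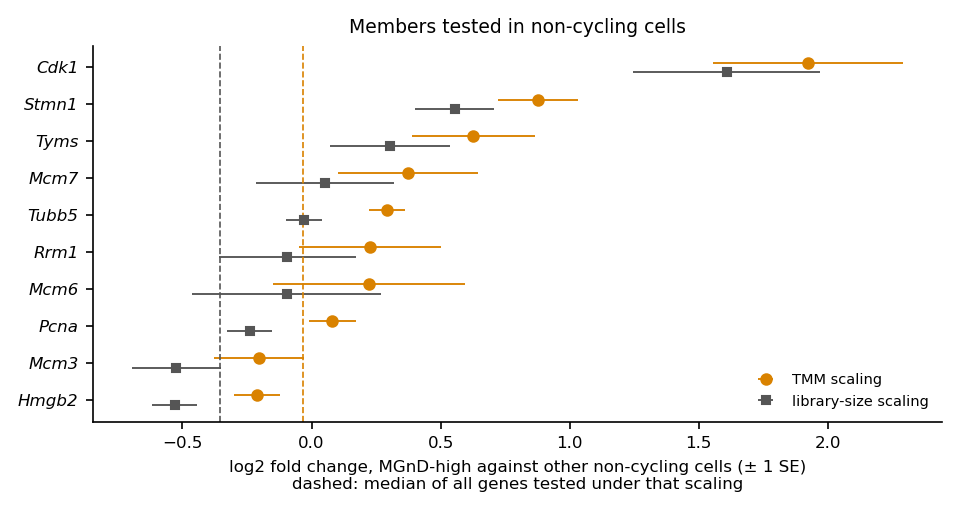
Log2 fold change (± 1 SE, 4 libraries) of the 10 tested genes in MGnD-high against other non-cycling cells, with TMM (orange circles) and library-size scaling (grey squares); dashed lines mark the median of all genes tested. Cdk1 and Stmn1 lie to the right of 0 under both, and Tubb5 moves from 0.29 to -0.03.

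Interferon-high cells were called in the same way from 12 interferon genes, and no member passed the test there. Of the 10 members tested, 0 changed in edgeR's quasi-likelihood test, 0 had an unadjusted p under 0.05 and 0 passed with DESeq2, against 3.70% of the 9659 genes tested. Values ran from -0.45 ± 0.536 for Tyms to 0.43 ± 0.290 for Stmn1. The 91 to 139 interferon-high non-cycling cells per library held 15 to 38 Hmgb2 UMIs and 1 or 2 Cdk1 UMIs each, so only large changes could be seen for the rarer genes. Of cycling cells, 4.76%, 7.27%, 5.26% and 13.5% were interferon-high in Control replicates 1 and 2 and cKO replicates 1 and 2, against 4.61%, 4.64%, 5.29% and 5.07% of non-cycling cells. These are 4, 4, 4 and 5 cells, and the mean difference of 2.80 points (exact sign permutation p = 0.25) was 0.923 points without cKO replicate 2 and became -0.662 points with 4 anchors asked for and -1.27 points with cells thinned to 1000 UMIs. Of the 24 regulators tested, Ccnd1 alone passed, at 0.47 ± 0.115 (edgeR, adjusted p = 0.00241), and not without Control replicate 1 (adjusted p = 0.0913).

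Genotypes were compared by library. The share of cycling cells was 2.13% in both Control libraries (84 of 3949 and 55 of 2583 cells), 2.15% in cKO replicate 1 (76 of 3528) and 1.43% in cKO replicate 2 (37 of 2588), with exact 95% intervals of 1.70 to 2.63, 1.61 to 2.76, 1.70 to 2.69 and 1.01 to 1.97%. The cKO replicates thus stood to either side of the Control libraries. The group means were 2.13% ± 0.00155 in Control and 1.79% ± 0.512 in cKO (SD, n = 2 each, exact permutation p = 1, with 0.333 the smallest that 2 against 2 can give). Without cKO replicate 2 the difference was 0.0260 points. S cells made up 31.0% and 49.1% of cycling cells in Control replicates 1 and 2 and 34.2% and 59.5% in cKO replicates 1 and 2.

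In sums over all microglia-like cells, 0 of 30 members changed with genotype (edgeR, adjusted p = 0.655 to 0.977; 0 with an unadjusted p under 0.05 and 0 with DESeq2), against 0.0223% of the 13457 genes tested. Ube2c stood at 14.6 and 12.7 CPM in Control replicates 1 and 2 and at 13.4 and 4.34 CPM in cKO replicates 1 and 2. The low cKO value belonged to the library with the fewest G2M cells, 15 against 27 to 56. Its log2 change of cKO against Control was -0.60 ± 0.375. Top2a, with 24.5 and 27.7 against 26.1 and 13.9 CPM, had -0.37 ± 0.231, and Mki67, with 22.3 and 24.8 against 25.4 and 12.6 CPM, -0.29 ± 0.253. In both, cKO replicate 1 lay within or above the Control values and cKO replicate 2 below them. Fewer cells of a kind and less RNA per cell cannot be told apart in such sums.

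In the S group cKO replicate 2 was the lowest library for 1 of 6 members, Mcm3 (39.2 and 40.9 CPM in Control, 38.3 and 35.9 CPM in cKO). Pcna stood at 101 and 120 CPM in Control and at 110 and 129 CPM in cKO (log2 change 0.12 ± 0.109), and Mcm5 at 5.96 and 7.36 against 5.87 and 6.28 CPM (-0.12 ± 0.161). The medians were -0.29 over the 19 G2M members, of which 18 were below 0, and -0.10 over the 6 S members, beside 0.01 over all genes. For 6 members (Birc5, Stmn1, Tubb5, Rrm1, Mcm3 and Nusap1) each cKO library was lower than each Control library; groups did not overlap for 39.7% of all genes. Without cKO replicate 1, 11 members were lower in cKO, all of them in the G2M group, against 1.77% of all genes lower in that fit (Ube2c -1.66, Top2a -0.91, Mki67 -0.90, Stmn1 -0.84), and without cKO replicate 2, 0 were. The libraries also differed in which cluster held most microglia-like cells (3 and 4 in Control replicates 1 and 2, 2 and 1 in cKO replicates 1 and 2) and in the heat-shock gene Hspa1a (125 and 74.6 against 211 and 388 CPM), whose part in the values was not tested.

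**Figure D5:**
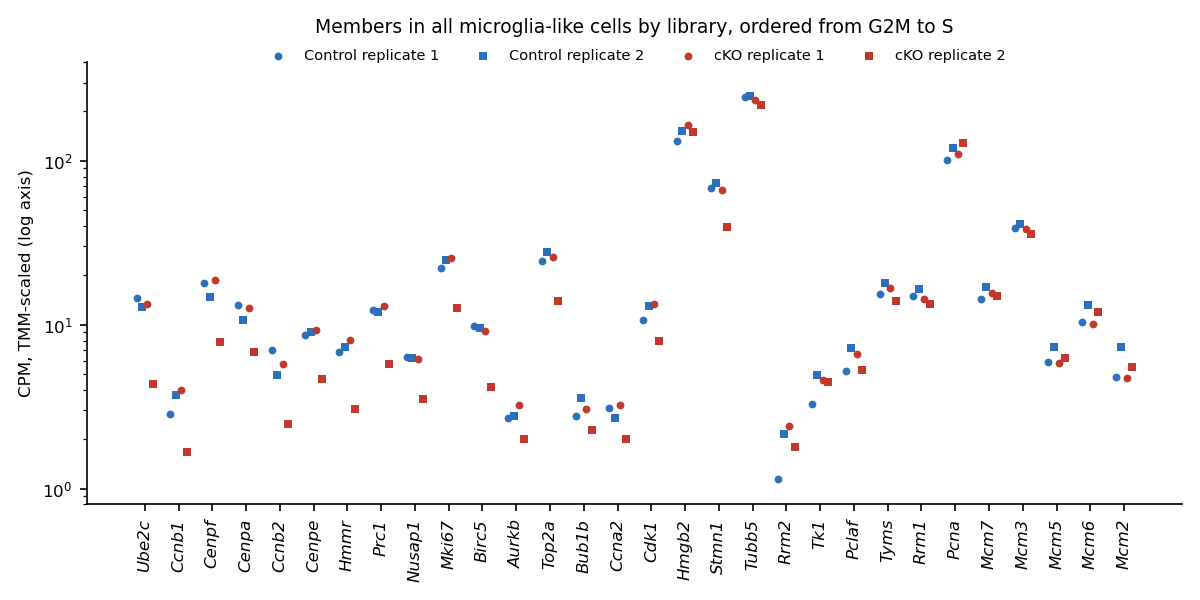
TMM-scaled CPM (log axis) of each gene in the summed microglia-like cells of the 4 libraries (blue, Control; red, cKO; circles, replicate 1; squares, replicate 2), ordered from the most G2M-biased gene on the left to the most S-biased on the right. The red squares of cKO replicate 2 lie below the other points for all G2M genes but Hmgb2, as for Ube2c at 4.34 CPM, and for 1 of the 6 S genes, Mcm3.

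Genotypes were also compared within the cell classes. In non-cycling cells 0 of the 26 members tested changed (edgeR; 2 with an unadjusted p under 0.05, 0 with DESeq2), against 0.0617% of all genes. In cycling cells 0 of 30 did (edgeR; 5 with an unadjusted p under 0.05, 0 of the 9 to which DESeq2 gave an adjusted p), against 0.0841% of all genes. There Rrm2 (0.56 ± 0.255), Tk1 (0.44 ± 0.221) and Pcna (0.39 ± 0.187) had the highest values of cKO against Control and Cenpa (-0.51 ± 0.255) and Stmn1 (-0.50 ± 0.213) the lowest; library-size scaling moved the median of all genes from 0.01 to 0.16 and called 0 members. Without cKO replicate 1, 9 members were lower in cycling cells of cKO, against 1.15% of all genes, and 1, Ube2c, in non-cycling cells (-2.10, adjusted p = 0.0275), against 1.51%. Of the regulators, the Cdk inhibitor Cdkn1a (p21) rose in cKO, at 70.9 and 61.2 CPM in cKO replicates 1 and 2 against 35.3 and 29.3 CPM in Control replicates 1 and 2. The groups did not overlap, and the log2 change was 1.03 ± 0.108 (edgeR, adjusted p = 0.0397). In non-cycling cells it was 1.02 ± 0.128 (adjusted p = 0.0489) and in cycling cells 0.95 ± 0.206 (adjusted p = 0.0634). The call for all microglia-like cells was lost with every barcode included (adjusted p = 0.0532) and after removal of cells with UMIs of 2 markers of other cell types (0.0763).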

How the data were processed

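The authors deposited raw gene-by-barcode UMI counts for each library, for which the submitters' processing notes name Cell Ranger 4.0.0 and the build mm10; read filtering and the handling of reads that fit several genes were not given in the sources used here. Counts were used as deposited, at a total of 33130800 to 47574406 UMIs per library. Barcodes with at least 1000 UMIs, 500 genes and at most 10% mitochondrial UMIs were clustered (scanpy 1.11.5, 2000 variable genes, 30 components, Leiden resolution 1) and clusters named from fixed marker lists; 850 cells of a shallow cluster stayed unnamed and 170 were monocyte-like. Doublets were not removed, since Scrublet called 7 of 13940 cells; removal of the 401 highest scores was an alternative. Anchors and states were read in cells thinned to 2000 UMIs. Counts were summed per library and class and tested with edgeR 4.0.16 (TMM, filterByExpr, quasi-likelihood F test, two-sided, Benjamini-Hochberg over all genes tested, threshold 0.05), with the library as a block for comparisons within libraries; CPM is counts per 1000000 of the sum, and the SE of a log2 fold change is its size divided by the square root of F. DESeq2 1.42.0 was an alternative. Shares were compared by exact permutation over libraries. The fits were tested on simulated data. There the genotype fit recovered 29 of 50 genes changed 1.5-fold and 46 of 50 changed 2-fold, with 6 false calls. The simulated spread was the same for every gene and was not taken from these libraries, so it does not give the power of the genotype comparison here. All members may be named, and of the regulators those with the smallest p, up to 4 per direction; those beyond that rule were named after their values were seen. The members and lists were chosen with earlier results of these data known. Promoters were taken from RefSeq (GRCm38.p6). Exons of Top2a, Stmn1 and Mcm7 overlap small RNA genes on the same strand in the annotation used here.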

Additional observations from a re-analysis of the deposited data

How the results depend on the processing

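All 30 members stayed higher in cycling cells under every alternative, and the counts of S and G2M members stayed within 1.5 times. Of the members in MGnD-high cells, 2 were called with non-cycling cells free of anchors at full depth and 0 with 1000 UMIs per cell. With genotype, 4 members were called without a filter on low counts, and 0 to 11 when 1 library was left out; in non-cycling cells 1 (Ube2c) without a filter and 0 to 1, and in cycling cells 0 to 9. A fit that leaves a group with 1 library assumes that it varies like the others. Replicate numbers were not shown to pair libraries (correlation of deviations -0.0726); with the replicate block, 0 members were called over all cells and 6, all lower in cKO, in cycling cells, where it called 2.96% of all genes lower. The genotype difference in the share of cycling cells ran from -0.699 to 0.0260 points without 1 library and was 0.442 with 2 anchors and 0.463 without thinning. The MGnD-high difference ran from 4.10 to 13.7 points without 1 library and was 30.6 without thinning. With 2 anchors it was 1.17, and its direction was not the same in all libraries. The interferon-high difference ran from 0.923 to 3.74 without 1 library. It was -0.662 with 4 anchors, -1.27 at 1000 UMIs and 25.5 without thinning.

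Among members that did not pass, S against G2M turned to 0.20 for Pclaf, 0.20 for Rrm1 and 0.22 for Tyms with 4 anchors, and to 0.18 for Tyms at 1000 UMIs. For MGnD-high cells, library-size scaling gave Tubb5 -0.029, Rrm1 -0.093, Pcna -0.24 and Mcm6 -0.10. At 1000 UMIs, Rrm1 had -0.63, Pcna -0.031, Mcm3 0.37, Mcm7 -0.47 and Tyms -0.0081; Rrm1 had -0.13 with 2 state genes and Pcna -0.051 at full depth. Without 1 library, Mcm3 ran from -0.38 to 0.0084 and Mcm6 from -0.16 to 0.52. Stmn1 in interferon-high cells had -0.64 at full depth. With genotype and without 1 library, Top2a ran from -0.91 to 0.0033, Mki67 from -0.90 to 0.12, Pcna from -0.0092 to 0.25 and Mcm5 from -0.28 to 0.029. The cause of these changes was not tested. Scaling to library size and the values without thinning were added after seeing the data. Few UMIs limit Cdk1, Ube2c and Rrm2 in non-cycling cells, and 252 cycling cells limit the phase and genotype comparisons.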

Other observations

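Members were also found in the 170 monocyte-like cells, led by class II genes, S100a4 and Ccr2. All 16 microglial markers were detected in that cluster too. In Control replicate 1 (36 cells) Mki67 stood at 128 CPM (60 UMIs), Top2a at 133 CPM (62 UMIs), Ube2c at 162 CPM and Nusap1 at 66.3 CPM. In the 34 monocyte-like cells of Control replicate 2 and the 47 and 53 of cKO replicates 1 and 2, Mki67 stood at 2.52, 12.4 and 2.66 CPM and Top2a at 2.52, 10.6 and 0 CPM. Rrm2 stood at 23.5 CPM in Control replicate 1 and at 21.2 CPM in cKO replicate 1, where Ube2c was at 0. These cells were too few for a test, and Control replicate 1 is the library that all but lacked Xist.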
